A study of Homo sapiens with 16 samples.

Results

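Day 30 human cardiomyocytes kept in HPLM/B27 were compared with cardiomyocytes of the same age kept in RPMI_glcM/B27, a standard culture medium whose glucose had been set to the level of HPLM. The comparison takes 8 of the 16 RNA-seq libraries, 4 wells in each medium, and every gene with a mean of at least 1 TPM (reads per gene length, brought to the same total in every library) over those 8 libraries, which is 15653 of the 43388 genes listed. All cells were hPSC-CMs, cardiomyocytes differentiated by the GiWi protocol from WTC11 human induced pluripotent stem cells, and all were held in RPMI/B27 until Day 16. At Day 16 they were divided among RPMI/B27, RPMI_glcM/B27 with 5 mM glucose and HPLM/B27, also with 5 mM glucose, until Day 30. The other 8 libraries are 4 wells of Day 16 RPMI/B27 and 4 of Day 30 RPMI/B27. The series' design text gives 3 wells for each medium, the sample labels give 4, and all 4 were used. WTC11 is 1 line, and the study's text describes the RNA-seq as coming from a single differentiation, so the p-values measure the spread between wells of it and not between differentiations.

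RPMI was composed to grow blood cells, whereas HPLM (human plasma-like medium) was composed to carry the small molecules of adult human plasma at the levels found there. Both media received the B27 supplement, which brings insulin. With glucose equal, HPLM differed from RPMI_glcM in many components at once, among them more calcium, less phosphate, other amino acid levels, and lactate, pyruvate, 3-hydroxybutyrate, carnitine, creatine, taurine and urate. The contribution of any single component cannot be told apart in this design. Cardiomyocytes made from pluripotent stem cells resemble fetal heart muscle. As the heart matures, the muscle replaces fetal sarcomere isoforms by adult ones, loads more calcium into the sarcoplasmic reticulum and draws more of its ATP from fatty acids. The question set by the comparison was which genes differed when plasma-like components, and not the amount of glucose, separated the cultures.

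The RPMI_glcM/B27 libraries held 7744768 to 10048729 reads on genes and the HPLM/B27 libraries 9903935 to 12807127. Structural RNA took most of each TPM total: RNR2, a mitochondrial ribosomal RNA, held 42.0% to 45.5% in RPMI_glcM/B27 and 46.2% to 48.3% in HPLM/B27, and RN7SK, a small nuclear RNA, 12.96% to 13.6% and 10.7% to 12.3%. Levels are therefore given as scaled TPM, that is TPM divided by a median-of-ratios factor of the library, and differences as HPLM/B27 minus RPMI_glcM/B27 on the log2(scaled TPM + 1) scale, which understates the change of genes near 0. Between the media, rose and fell mean only higher and lower in HPLM/B27 than in RPMI_glcM/B27. Cardiomyocyte markers were abundant in all 8 libraries, with a summed level of 10 genes of 15835 to 17604 scaled TPM in RPMI_glcM/B27 and 17052 to 21302 in HPLM/B27. Markers of other cells were far lower, with the RPMI_glcM/B27 range given first. Smooth muscle markers summed to 376 to 421 and 378 to 647 scaled TPM with MYH11 at 0, fibroblast markers to 136 to 156 and 138 to 199 with FAP at 0, endothelial markers to 19.3 to 24.99 and 22.2 to 36.2, and epicardial markers to 628 to 671 and 563 to 696. In bulk RNA, fewer cells of a type and less RNA per cell cannot be told apart.

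Of the 15653 genes, 256 (1.64%) differed between the media in limma at an adjusted p under 0.05, with 159 (1.02%) higher and 97 (0.62%) lower in HPLM/B27. On the deposited TPM, without scaling, limma called 11 genes, 8 higher and 3 lower, and the median of all genes stood at -0.06 in place of 0.00. All 256 genes kept their direction there and 216 had an unadjusted p under 0.05. The smallest called differences were 0.20 and -0.23, so a shift of this size could hardly turn a sign. As the background for the gene lists below, 2182 of all genes (13.9%) had an unadjusted p under 0.05 and 7879 (50.3%) had a difference above 0, against 5737 (36.7%) above 0 on the deposited TPM. For genes past the threshold in a list, the background is the 1.02% higher and 0.62% lower over all genes. The lists were chosen with earlier results of these data known, so their counts beside this background are descriptions and not tests. The differences were moderate: the median of the called genes was 0.56 for those higher and -0.58 for those lower, and 15 genes with at least 10 reads were higher by more than 1 and 7 lower by more than 1. Levels of the 2 media did not overlap for 255 of the 256 called genes, and over all genes HPLM/B27 lay wholly above in 855 (5.46%) and wholly below in 754 (4.82%). The 95% interval of the difference had a median half-width of 0.30 and lay inside -1 to 1 for 13841 genes (88.4%). In a principal component analysis of the 8 libraries, the first component held 26.7% of the variance and separated the media, with RPMI_glcM/B27 from -14.2 to -10.3 and HPLM/B27 from 5.2 to 18.1.

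**Figure D1:**
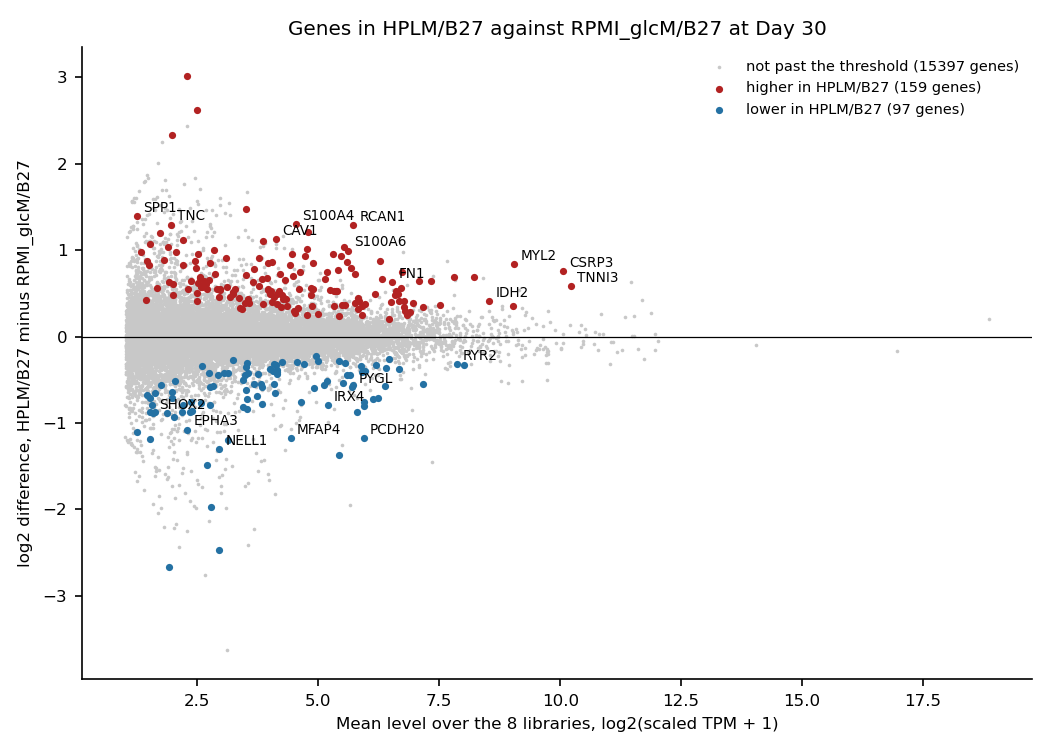
Difference between HPLM/B27 and RPMI_glcM/B27 at Day 30 on the log2(scaled TPM + 1) scale (vertical axis) against the mean level (horizontal axis, log2) for the 15653 genes tested. Coloured points are the 159 genes higher and 97 lower in HPLM/B27 at an adjusted p under 0.05. Most called genes lie within 1 log2 unit of 0.

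Genes of the contractile apparatus were among those that rose. MYL2, the regulatory light chain of ventricular myosin, read 363, 352, 392 and 402 scaled TPM in RPMI_glcM/B27 and 717, 842, 524 and 646 in HPLM/B27. Every HPLM/B27 library lay above every RPMI_glcM/B27 library, and the difference was 0.83 ± 0.14 (SE), adjusted p = 0.00694. TNNI3, the adult cardiac troponin I, read 1017, 866, 874 and 1087 scaled TPM in RPMI_glcM/B27 and 1393, 1413, 1374 and 1546 in HPLM/B27. Again the media did not overlap (0.58 ± 0.093 (SE), adjusted p = 0.00563). NEBL, which encodes nebulette of the thin filament and Z-disc, rose from 454 ± 10.97 to 581 ± 21.4 scaled TPM (mean ± SD, 4 libraries, here and below), a difference of 0.35, adjusted p = 0.0289. Of the listed thick filament genes tested, 1 of 12 was higher and 0 lower with a median of 0.03. Of the thin filament genes, 2 of 19 were higher and 0 lower with a median of 0.16. Over all genes 1.02% were higher and 0.62% lower, with a median of 0.00. On the deposited scale the thick filament median turned to -0.05. NEBL passed without HPLM/B27 replicates 1 or 2 and missed the threshold in the other 6 fits (highest adjusted p = 0.0909, without HPLM/B27 replicate 4).

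The most abundant sarcomere genes did not pass the threshold. MYL7, the atrial regulatory light chain that early cardiomyocytes express throughout, stood at 4253 scaled TPM in RPMI_glcM/B27 and 4103 in HPLM/B27 (-0.05, 95% interval -0.38 to 0.27). TNNT2, cardiac troponin T, differed by 0.03, 95% interval -0.65 to 0.71, TNNC1, troponin C, by -0.14, 95% interval -0.71 to 0.43, and MYL3, the ventricular essential light chain, by 0.01, 95% interval -0.36 to 0.38. ACTC1, cardiac actin, had 2766 scaled TPM in RPMI_glcM/B27 and 3798 in HPLM/B27 (0.42, 95% interval -0.33 to 1.18). MYH7, the beta myosin heavy chain of the adult ventricle, read 2432, 2796, 2809 and 2801 scaled TPM in RPMI_glcM/B27 and 3667, 3136, 2832 and 3222 in HPLM/B27, and MYH6, the alpha chain, read 987, 917, 960.1 and 1047 scaled TPM in RPMI_glcM/B27 and 831, 437, 739 and 843 in HPLM/B27. For both heavy chains the media did not overlap, MYH7 lying higher and MYH6 lower in HPLM/B27, yet neither passed over all genes (0.24, 95% interval -0.03 to 0.51 and -0.50, 95% interval -1.09 to 0.08). MYH6 and MYH7 are near-identical neighbours, so reads shared between them are uncertain. TNNI1, the fetal troponin I, stood at 660.0 scaled TPM in RPMI_glcM/B27 and 569 in HPLM/B27 (-0.22, 95% interval -0.35 to -0.09).

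Within each library, the share of the adult isoform in 3 isoform pairs removes the scaling of the library. TNNI3 as a share of TNNI3 and TNNI1 was 60.5%, 56.8%, 56.1% and 63.2% in the RPMI_glcM/B27 wells and 69.1%, 70.4%, 71.9% and 74.6% in the HPLM/B27 wells. MYL2 as a share of MYL2 and MYL7 was 9.20%, 7.40%, 7.76% and 8.44% against 13.6%, 17.02%, 13.2% and 13.01%. MYH7 as a share of MYH7 and MYH6 was 71.1%, 75.3%, 74.5% and 72.8% against 81.5%, 87.8%, 79.3% and 79.3%. In all 3 pairs every HPLM/B27 well lay above every RPMI_glcM/B27 well. The means differed by 12.4 percentage points for TNNI3 (71.5% ± 2.37 against 59.1% ± 3.30), 6.02 for MYL2 (14.2% ± 1.89 against 8.20% ± 0.795) and 8.53 for MYH7 (82.0% ± 4.01 against 73.4% ± 1.86). Each had a two-sided exact permutation p of 0.0286, the smallest that 4 against 4 wells can give, and 0.0286 after adjustment over the 3 shares. The study reports that its qPCR over independent differentiations did not bear out the TNNI3 to TNNI1 difference. For TNNI3 alone it reports higher qPCR levels in HPLM/B27 than in RPMI_glcM/B27 across its cell lines. By immunostaining it reports a larger share of cells with the MYL2 protein in HPLM/B27. For the MYH7 to MYH6 and MYL2 to MYL7 ratios it reports an increase by both RNA-seq and qPCR. MYL7 was the more abundant regulatory light chain of the pair in every well. Set beside the other groups, the TNNI3 share was 26.7% ± 1.80 at Day 16 and 41.8% ± 2.03 in Day 30 RPMI/B27, while the MYL2 share was 11.97% ± 0.8294 in Day 30 RPMI/B27. For both, HPLM/B27 lay above Day 30 RPMI/B27 without overlap. The MYH7 share in Day 30 RPMI/B27 was 76.0% ± 7.40, and its wells (64.9% to 80.0%) overlapped those of HPLM/B27 (79.3% to 87.8%).

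**Figure D2:**
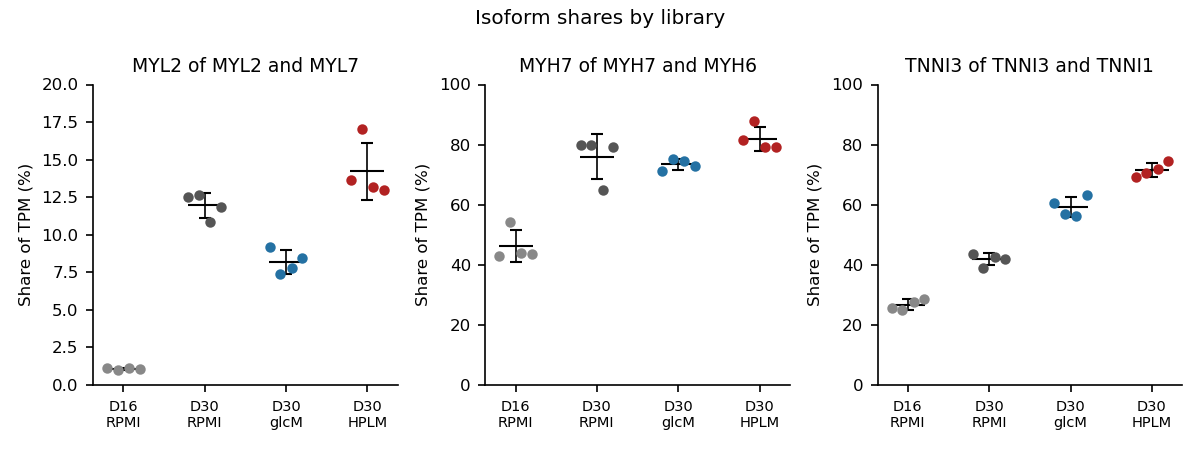
Share of the adult isoform (percent of the summed TPM of the pair, vertical axes) in each library of the 4 groups for TNNI3 with TNNI1, MYL2 with MYL7 and MYH7 with MYH6. Points are libraries, with the mean ± SD of the 4 libraries of a group. The MYL2 axis ends at 20% and the others at 100%. HPLM/B27 lies above RPMI_glcM/B27 without overlap in all 3 pairs.

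The Z-disc anchors thin filaments and, through costameres, the sarcomere to the cell membrane. Of 41 listed Z-disc and costamere genes tested, 6 were higher and 1 lower in HPLM/B27, beside 1.02% and 0.62% of all genes. The list was not blind to these data: CSRP3, SYNPO and ITGA5, among the 6, are also in the qPCR panel of the study. Of the 41, 37 had a difference above 0, beside 50.3% of all genes, and the median was 0.18. On the deposited scale 29 were above 0 with a median of 0.10, beside 36.7% of all genes, and 2 of the 6, DES and CSRP3, passed. DES encodes desmin, the muscle intermediate filament that links neighbouring Z-discs, and lies on chromosome 2, 219418377 to 219426734 (GRCh38.p14, as are all positions below). It read 7.93, 8.82, 8.73 and 7.06 scaled TPM in RPMI_glcM/B27 and 18.1, 18.99, 14.8 and 23.3 in HPLM/B27. The HPLM/B27 wells spread over a wider range but all lay above the others, a difference of 1.10 ± 0.18 (SE), adjusted p = 0.00591. CSRP3 encodes muscle LIM protein, a Z-disc protein bound up with stretch sensing, and read 790.0, 791, 853 and 749 scaled TPM in RPMI_glcM/B27 and 1400.0, 1113, 1396 and 1485 in HPLM/B27. It was the most abundant of the 6 (0.75 ± 0.15 (SE), adjusted p = 0.0214). XIRP2, an actin-binding repeat protein of the intercalated disc and Z-disc, rose from 13.99 ± 3.02 to 28.04 ± 4.66 scaled TPM (0.96, adjusted p = 0.0207), and PDLIM3, the actinin-associated LIM protein, from 36.2 ± 3.91 to 63.7 ± 9.87 scaled TPM (0.79, adjusted p = 0.00708). SYNPO, synaptopodin, an actin-bundling protein, rose from 2.88 ± 0.545 to 6.49 ± 0.516 scaled TPM (0.96, adjusted p = 0.000735), and ITGA5, the integrin subunit that binds fibronectin, from 12.3 ± 1.05 to 18.2 ± 1.74 scaled TPM (0.52, adjusted p = 0.0163). LAMA2, the laminin chain of the muscle basement membrane, was the member that fell, from 95.1 ± 3.71 to 79.1 ± 6.25 scaled TPM (-0.27, adjusted p = 0.0367). The abundant ACTN2, alpha-actinin of the Z-disc, differed by 0.21, 95% interval -0.02 to 0.45, and LDB3 by 0.07, 95% interval -0.09 to 0.23. CSRP3 passed without RPMI_glcM/B27 replicate 3 or HPLM/B27 replicate 2 and missed the threshold in the other 6 fits (highest adjusted p = 0.0746, without HPLM/B27 replicate 4). XIRP2 passed without RPMI_glcM/B27 replicate 1 or HPLM/B27 replicate 2 and missed the threshold in the other 6 fits (highest adjusted p = 0.0731, without HPLM/B27 replicate 4). ITGA5 missed the threshold without RPMI_glcM/B27 replicate 3 or HPLM/B27 replicate 4 (highest adjusted p = 0.0622). LAMA2 passed without RPMI_glcM/B27 replicate 4 or HPLM/B27 replicates 2 or 3 and missed the threshold in the other 5 fits (highest adjusted p = 0.118, without HPLM/B27 replicate 4).

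ANKRD1, a strain-responsive Z-disc and nuclear protein, stood at 2194 scaled TPM in RPMI_glcM/B27 and 3488 in HPLM/B27, and its interval was too wide to place it (0.64, 95% interval -0.28 to 1.55). The list of natriuretic and strain-responsive genes to which it also belongs had 0 of 13 members past the threshold in limma and 0 in limma-voom, 3 at an unadjusted p under 0.05, 12 with a difference above 0 and a median of 0.42. In the intercalated disc list, 0 of 14 passed in limma or limma-voom, 3 had an unadjusted p under 0.05, and the most abundant member CDH2, N-cadherin, differed by 0.09, 95% interval -0.12 to 0.29.

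**Figure D3:**
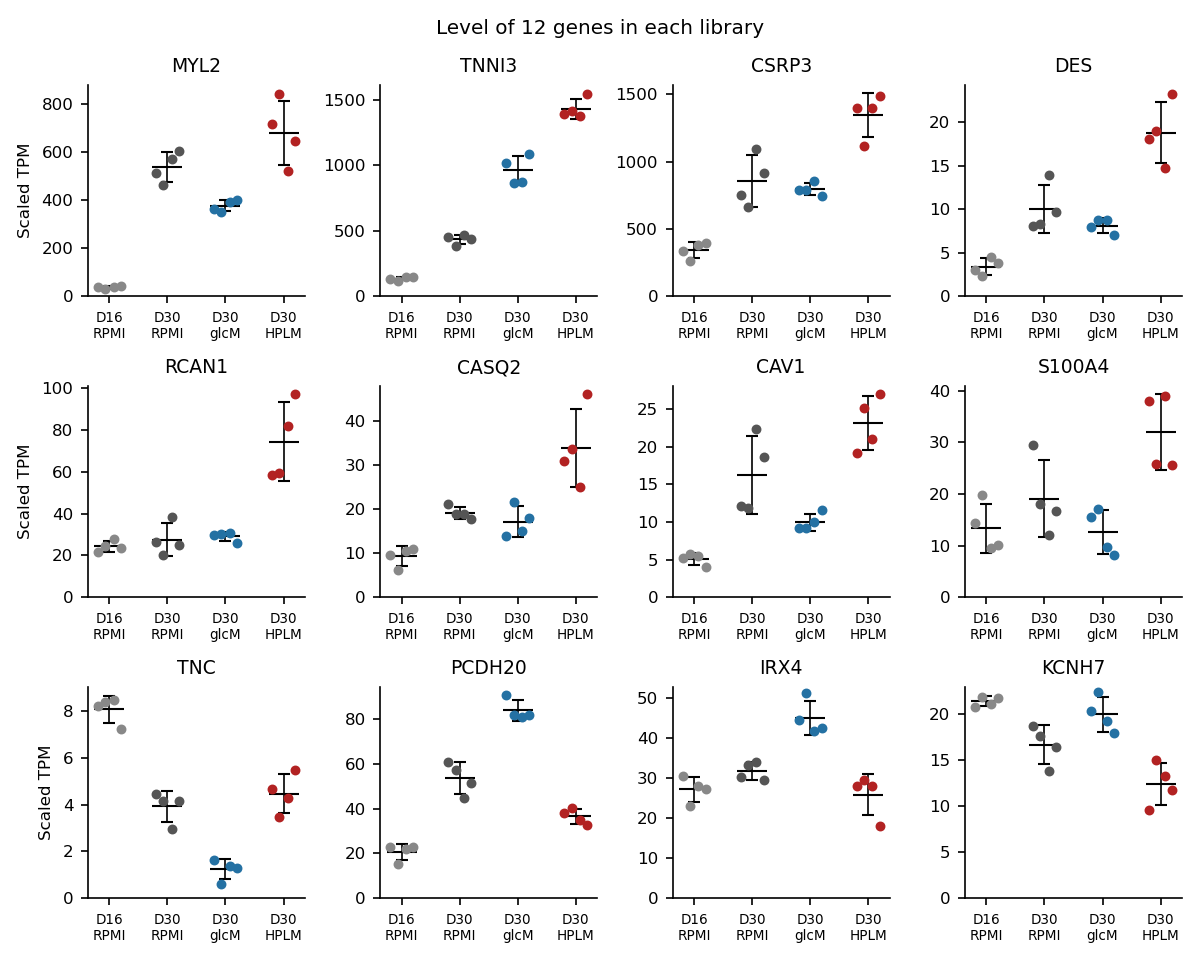
Level of 12 genes in each library of the 4 groups (vertical axes, scaled TPM, each starting at 0). Points are libraries, with the mean ± SD of the 4 libraries of a group. MYL2, TNNI3, CSRP3, DES, RCAN1, CASQ2, CAV1, S100A4 and TNC were higher and PCDH20, IRX4 and KCNH7 lower in HPLM/B27 than in RPMI_glcM/B27.

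Genes that store, release or respond to calcium moved in both directions. CASQ2, cardiac calsequestrin, buffers calcium inside the sarcoplasmic reticulum, and read 13.8, 21.7, 15.1 and 18.1 scaled TPM in RPMI_glcM/B27 and 30.8, 33.7, 25.1 and 46.1 in HPLM/B27. CASQ1, the skeletal calsequestrin, read 15.3, 15.7, 17.8 and 18.7 scaled TPM in RPMI_glcM/B27 and 36.4, 40.1, 29.9 and 34.7 in HPLM/B27. Both calsequestrins lay higher in HPLM/B27 without overlap (0.93 ± 0.19 (SE), adjusted p = 0.0214, and 1.02 ± 0.14 (SE), adjusted p = 0.00162). CA8, a carbonic anhydrase relative without catalytic activity that binds the inositol trisphosphate receptor ITPR1, rose from 3.85 ± 0.380 to 7.75 ± 0.666 scaled TPM (0.85, adjusted p = 0.00178). RYR2, the channel that releases the stored calcium, went the other way and read 254, 269, 255 and 248 scaled TPM in RPMI_glcM/B27 and 197, 211, 216 and 197 in HPLM/B27. It fell by 0.32 on the log2 scale (adjusted p = 0.00794). Of the 20 listed genes of the reticulum store tested, 3 were higher and 1 lower, beside 1.02% and 0.62% of all genes. The list median was -0.04. The pump ATP2A2 differed by 0.14, 95% interval -0.02 to 0.30 and its inhibitor PLN, phospholamban, by 0.27, 95% interval 0.04 to 0.50. CASQ2 missed the threshold without RPMI_glcM/B27 replicates 1 or 3 or HPLM/B27 replicate 4 (highest adjusted p = 0.0712).

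At the surface membrane, GEM, a small GTPase that inhibits L-type calcium channels, was the 1 gene of 16 tested that passed. It read 21.03, 19.5, 18.000 and 20.9 scaled TPM in RPMI_glcM/B27 and 34.9, 28.5, 41.9 and 43.4 in HPLM/B27, without overlap (0.86 ± 0.14 (SE), adjusted p = 0.00591). The channel itself, CACNA1C, differed by 0.01, 95% interval -0.19 to 0.21, and the sodium-calcium exchanger SLC8A1 by 0.29, 95% interval 0.10 to 0.48. RRAD, a relative of GEM with the same action on calcium channels, had 71.2 scaled TPM in RPMI_glcM/B27 and 141 in HPLM/B27 but a wide interval (0.98, 95% interval 0.30 to 1.65).

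Calcineurin is the phosphatase that calcium and calmodulin switch on, and it drives NFAT factors into the nucleus. RCAN1, a calcineurin inhibitor and a transcriptional target of NFAT, had the largest difference of the genes listed for this pathway. It lies on chromosome 21, 34516442 to 34615113 and read 29.6, 30.4, 30.6 and 26.1 scaled TPM in RPMI_glcM/B27 and 58.7, 59.4, 82.1 and 97.4 in HPLM/B27. Even the lowest HPLM/B27 well stood above the highest RPMI_glcM/B27 well, and the difference was 1.29 ± 0.18 (SE), adjusted p = 0.00178. MEF2C, a muscle transcription factor under calcium control, rose from 24.7 ± 2.02 to 31.9 ± 2.24 scaled TPM (0.35, adjusted p = 0.0367), while CAMK2A, a calmodulin kinase better known from neurons, fell from 19.2 ± 1.61 to 14.1 ± 1.40 scaled TPM (-0.42, adjusted p = 0.0455). Of 26 genes tested, these 2 higher and 1 lower passed, with a median of 0.13, beside 1.02% higher and 0.62% lower of all genes. The cardiac calmodulin kinase CAMK2D differed by 0.28, 95% interval 0.12 to 0.44 and calmodulin gene CALM2 by 0.19, 95% interval 0.03 to 0.34. MEF2C passed without RPMI_glcM/B27 replicate 1 or HPLM/B27 replicate 2 and missed the threshold in the other 6 fits (highest adjusted p = 0.120, without HPLM/B27 replicate 4). CAMK2A passed without HPLM/B27 replicate 1 and missed the threshold in the other 7 fits (highest adjusted p = 0.141, without HPLM/B27 replicate 4).

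Caveolae are flask-shaped pits of the surface membrane built by caveolins and cavins, and they hold ion channels, receptors and signalling enzymes. CAV1 and CAV2, the caveolins of most tissues, lie side by side on chromosome 7, 16467 bases apart, and rose together. Their promoters are shown because both genes of the pair moved, as are those of S100A6 and S100A4, a second nearby pair (7629 bases apart) that rose. Each line holds 300 bases from RefSeq (GRCh38.p14), written on the strand of the gene, 250 before and 50 after the annotated start: CAV2 at chr7:116499488-116499787, plus strand, CAV1 at chr7:116524759-116525058, plus strand, S100A6 at chr1:153535942-153536241, minus strand and S100A4 at chr1:153545757-153546056, minus strand. Capitals mark the letters GGAAA (the core that NFAT factors recognise), CATTCC (the MCAT element of muscle genes) and TATAAA (the TATA box), each searched on both strands.
CAV2: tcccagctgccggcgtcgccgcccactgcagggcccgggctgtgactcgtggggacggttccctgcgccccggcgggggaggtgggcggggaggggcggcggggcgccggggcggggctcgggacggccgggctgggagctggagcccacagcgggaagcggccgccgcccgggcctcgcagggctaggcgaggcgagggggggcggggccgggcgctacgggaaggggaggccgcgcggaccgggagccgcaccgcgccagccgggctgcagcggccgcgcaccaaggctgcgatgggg
CAV1: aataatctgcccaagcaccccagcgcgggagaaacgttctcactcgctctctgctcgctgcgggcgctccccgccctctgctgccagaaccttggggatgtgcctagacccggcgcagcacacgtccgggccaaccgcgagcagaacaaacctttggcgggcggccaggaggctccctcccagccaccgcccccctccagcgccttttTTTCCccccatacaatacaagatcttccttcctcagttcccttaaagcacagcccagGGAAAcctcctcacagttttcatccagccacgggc
S100A6: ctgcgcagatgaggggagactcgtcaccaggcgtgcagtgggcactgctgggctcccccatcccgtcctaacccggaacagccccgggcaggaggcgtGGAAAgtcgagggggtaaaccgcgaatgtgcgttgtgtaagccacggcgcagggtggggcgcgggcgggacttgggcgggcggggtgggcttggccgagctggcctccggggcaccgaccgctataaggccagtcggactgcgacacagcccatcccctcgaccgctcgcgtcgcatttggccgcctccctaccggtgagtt
S100A4: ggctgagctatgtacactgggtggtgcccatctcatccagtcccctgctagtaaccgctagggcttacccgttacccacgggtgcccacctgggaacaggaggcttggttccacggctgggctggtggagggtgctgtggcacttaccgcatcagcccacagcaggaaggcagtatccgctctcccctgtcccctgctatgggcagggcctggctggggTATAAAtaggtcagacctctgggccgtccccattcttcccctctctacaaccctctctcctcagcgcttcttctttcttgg
GGAAA was in 61.4% of all 27305 promoters of this length and in 58.6% of the 10565 of tested genes. Among called genes it was in 67 of 123 (54.5%) promoters of those higher and 45 of 72 (62.5%) of those lower in HPLM/B27. CATTCC was in 3836 of all promoters, 11.4% of those tested, 14.6% of those higher and 12.5% of those lower. TATAAA was in 3264 of all, 6.41% of those tested, 5.69% of those higher and 6.94% of those lower. A match describes letters in this window and says nothing of binding.

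CAV1 read 9.20, 9.14, 9.93 and 11.6 scaled TPM in RPMI_glcM/B27 and 19.2, 25.1, 21.03 and 26.96 in HPLM/B27, and CAV2 read 30.8, 28.1, 29.2 and 29.3 scaled TPM in RPMI_glcM/B27 and 53.4, 56.2, 69.001 and 68.3 in HPLM/B27. In both genes all HPLM/B27 wells lay above all RPMI_glcM/B27 wells (1.13 ± 0.18 (SE), adjusted p = 0.00502 for CAV1 and 1.04 ± 0.12 (SE), adjusted p = 0.000735 for CAV2). They were the 2 of 8 caveola genes tested that passed, beside 1.02% higher and 0.62% lower of all genes. CAVIN1, the coat protein of caveolae, differed by -0.18, 95% interval -0.68 to 0.33, and CAVIN4, the muscle cavin, by 0.52, 95% interval -0.00 to 1.05. Caveolins are also abundant in endothelium, smooth muscle and fibroblasts. The summed markers of those cells overlapped between the media for smooth muscle (376 to 421 against 378 to 647 scaled TPM), fibroblasts (136 to 156 against 138 to 199) and endothelium (19.3 to 24.99 against 22.2 to 36.2). Single markers lay apart. The fibroblast markers COL1A2 (13.1 to 16.6 against 19.4 to 25.5 scaled TPM) and COL3A1 (32.5 to 38.2 against 41.3 to 77.1) were higher in HPLM/B27 without overlap and POSTN (42.2 to 47.05 against 24.04 to 34.6) lower, none past the threshold, and RGS5 of the smooth muscle markers passed. Of the tested markers, 6 of 7 for fibroblasts and 5 of 6 for smooth muscle had a difference above 0. Their part in the caveolin, S100 and matrix results was not tested.

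S100 proteins are small calcium-binding proteins, several of which bind the cytoskeleton. S100A4, on chromosome 1, 153543621 to 153545806, read 15.6, 17.1, 9.70 and 8.27 scaled TPM in RPMI_glcM/B27 and 37.99, 25.7, 38.9 and 25.7 in HPLM/B27, and S100A6, on chromosome 1, 153534599 to 153535991, read 29.5, 30.4, 30.5 and 35.6 scaled TPM in RPMI_glcM/B27 and 70.1, 68.1, 54.6 and 62.5 in HPLM/B27. S100A4 was spread over a wide range in HPLM/B27, S100A6 less so, and neither overlapped RPMI_glcM/B27 (1.31 ± 0.29 (SE), adjusted p = 0.0347, and 0.99 ± 0.14 (SE), adjusted p = 0.00178). S100A13, in the same cluster, rose from 26.2 ± 1.85 to 42.1 ± 2.98 scaled TPM (0.66, adjusted p = 0.00153). Of 15 S100 and other calcium-binding genes tested, these 3 were higher and 0 lower, beside 1.02% and 0.62% of all genes. Of the 15, 14 had a difference above 0, and the median was 0.37. On the deposited scale 10 were above 0 with a median of 0.29, and none passed. The annexin partner S100A10 differed by 0.37, 95% interval -0.02 to 0.75 and ANXA2 by 0.03, 95% interval -0.13 to 0.19. S100A4 passed without RPMI_glcM/B27 replicate 2 or HPLM/B27 replicate 2 and missed the threshold in the other 6 fits (highest adjusted p = 0.102, without HPLM/B27 replicate 3).

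Of 15 potassium, sodium and pacemaker channel genes tested, 0 were higher and 1 lower in HPLM/B27, beside 1.02% and 0.62% of all genes. KCNH7, a potassium channel related to KCNH2, read 20.3, 22.4, 19.2 and 17.96 scaled TPM in RPMI_glcM/B27 and 9.61, 15.04, 13.3 and 11.7 in HPLM/B27. It lay lower in HPLM/B27 without overlap (-0.66 ± 0.12 (SE), adjusted p = 0.00849). HCN4, the main pacemaker channel of the heart, differed by -0.15, 95% interval -0.38 to 0.07, and KCNH2 by 0.11, 95% interval -0.11 to 0.33. Among 13 genes of the sodium pump and sodium transport, SLC4A3, an anion exchanger of heart muscle, rose from 31.6 ± 1.41 to 46.2 ± 1.53 scaled TPM (0.53, adjusted p = 0.00823) and SLC12A7, a potassium-chloride cotransporter, from 3.54 ± 0.686 to 6.23 ± 0.810 scaled TPM (0.68, adjusted p = 0.0454), while ATP1B2, a beta subunit of the pump, fell from 40.1 ± 1.80 to 27.3 ± 5.37 scaled TPM (-0.56, adjusted p = 0.0203). The beta subunit ATP1B1 differed by 0.19, 95% interval 0.01 to 0.37. ATP1B2 passed without RPMI_glcM/B27 replicates 1 or 4 or HPLM/B27 replicates 1 or 4 and missed the threshold in the other 4 fits (highest adjusted p = 0.0681, without RPMI_glcM/B27 replicate 3). SLC12A7 passed without RPMI_glcM/B27 replicate 2 or HPLM/B27 replicate 2 and missed the threshold in the other 6 fits (highest adjusted p = 0.130, without HPLM/B27 replicate 3).

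Of 31 cardiac transcription factors tested, 2 were higher and 3 lower, beside 1.02% and 0.62% of all genes. The list median was -0.01. HEY2, the Notch target that marks compact ventricular muscle, read 64.8, 83.7, 70.5 and 62.998 scaled TPM in RPMI_glcM/B27 and 35.3, 44.7, 42.9 and 29.8 in HPLM/B27. IRX4, a ventricle-restricted homeobox factor, read 44.5, 51.3, 41.98 and 42.6 scaled TPM in RPMI_glcM/B27 and 28.03, 29.6, 27.98 and 18.2 in HPLM/B27, the fourth HPLM/B27 well being the lowest. TBX18, a factor of the sinus node head and the epicardium, read 13.1, 13.02, 11.5 and 14.05 scaled TPM in RPMI_glcM/B27 and 7.30, 7.24, 5.75 and 7.39 in HPLM/B27. All 3 were lower in HPLM/B27 without overlap, with a difference of -0.88 ± 0.13 (SE), adjusted p = 0.00380 for HEY2, -0.79 ± 0.13 (SE), adjusted p = 0.00591 for IRX4 and -0.82 ± 0.12 (SE), adjusted p = 0.00380 for TBX18. HEY2 and IRX4 fell in the same wells in which MYL2, a ventricular gene, rose. In the same limma fit, HPLM/B27 did not pass against Day 30 RPMI/B27 for HEY2 (-0.37, adjusted p = 0.0781) or IRX4 (-0.31, adjusted p = 0.138). RPMI_glcM/B27 was higher than RPMI/B27 for both (0.50, adjusted p = 0.0231, and 0.49, adjusted p = 0.0254). TBX18 was lower in HPLM/B27 than in RPMI/B27 (-1.31, adjusted p = 1.53e-05). Outside the list, SHOX2, another sinus node factor, also fell, from 2.90 ± 0.956 to 1.08 ± 0.314 scaled TPM (-0.89, adjusted p = 0.0203). MEF2C, given above with the calcium genes, and PRRX1, a factor of connective tissue precursors, were the members that rose, PRRX1 from 10.8 ± 2.82 to 20.2 ± 3.13 scaled TPM (0.86, adjusted p = 0.00740). TBX18 is also 1 of the 10 epicardial markers, whose summed level overlapped between the media (628 to 671 against 563 to 696 scaled TPM). Most of that sum is KRT8 (493 to 525 against 470.0 to 602). Of the other markers, KRT19 also lay lower in HPLM/B27 without overlap (98.3 to 130.5 against 84.9 to 96.4, adjusted p = 0.385), and WT1, TCF21, UPK3B, ALDH1A2, BNC1, MSLN and ITLN1 were under the filter. The 3 tested markers had a median of -0.30, and their part in the TBX18 result was not tested. The core factors HAND2 and TBX20 differed by -0.07, 95% interval -0.25 to 0.12 and -0.21, 95% interval -0.46 to 0.04. SHOX2 passed without RPMI_glcM/B27 replicates 2 or 3 or HPLM/B27 replicates 2 or 3 and missed the threshold in the other 4 fits (highest adjusted p = 0.0668, without RPMI_glcM/B27 replicate 4).

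With glucose equal, 3 of 30 glycolysis genes tested were higher and 0 lower in HPLM/B27, beside 1.02% and 0.62% of all genes. ENO3, the muscle enolase, read 119, 127, 118 and 132 scaled TPM in RPMI_glcM/B27 and 203, 219, 179.6 and 176 in HPLM/B27. Its media were well apart (0.64 ± 0.071 (SE), adjusted p = 0.000734). SLC2A3, the glucose transporter GLUT3, rose from 83.7 ± 7.05 to 125 ± 20.8 scaled TPM (0.56, adjusted p = 0.0177), and PFKFB2, the heart form of the enzyme that makes fructose 2,6-bisphosphate, from 7.64 ± 0.907 to 13.1 ± 1.59 scaled TPM (0.71, adjusted p = 0.0185). SLC2A3 has a near-identical paralogue, SLC2A14, so its reads are uncertain. The general enolase ENO1 differed by -0.30, 95% interval -0.51 to -0.09, GAPDH by -0.15, 95% interval -0.47 to 0.16 and the lactate dehydrogenase subunits LDHA and LDHB by -0.10, 95% interval -0.26 to 0.07 and 0.28, 95% interval 0.05 to 0.51. The glycolysis median was 0.05 and turned to -0.02 on the deposited scale. PYGL, the liver glycogen phosphorylase, read 63.9, 60.4, 60.6 and 59.6 scaled TPM in RPMI_glcM/B27 and 37.6, 44.5, 40.005 and 40.4 in HPLM/B27 and was the 1 of 17 glycogen genes that passed, lower in HPLM/B27 (-0.58 ± 0.066 (SE), adjusted p = 0.000735). Of 10 targets of MondoA, the factor that senses glucose phosphate, 0 passed in limma or limma-voom, with 3 at an unadjusted p under 0.05. SLC2A3 missed the threshold without RPMI_glcM/B27 replicate 1 (adjusted p = 0.0591). PFKFB2 passed without RPMI_glcM/B27 replicate 4 or HPLM/B27 replicates 1 or 2 and missed the threshold in the other 5 fits (highest adjusted p = 0.0640, without HPLM/B27 replicate 4).

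Mitochondrial fuel genes gave few calls, all of them higher in HPLM/B27. Over all genes 1.02% were higher and 0.62% lower. Of 37 genes of pyruvate entry and the citrate cycle, 3 were higher and 0 lower, 33 had a difference above 0 and the median was 0.14 (26 above 0 with a median of 0.07 on the deposited scale, where none passed). IDH2, the mitochondrial isocitrate dehydrogenase that makes NADPH, read 333, 321, 311 and 295 scaled TPM in RPMI_glcM/B27 and 426, 437, 389 and 428 in HPLM/B27 (0.41 ± 0.079 (SE), adjusted p = 0.0162). PDK3, a kinase that switches off pyruvate dehydrogenase, rose from 19.4 ± 1.11 to 24.1 ± 1.98 scaled TPM (0.30, adjusted p = 0.0347), and ME1, the cytosolic malic enzyme, from 15.6 ± 1.82 to 19.9 ± 0.947 scaled TPM (0.34, adjusted p = 0.0472). ME1 also belongs to the fatty acid synthesis and NRF2 target lists and was the single gene past the threshold in each by limma, where limma-voom called 0. Of 41 fatty acid uptake and oxidation genes, 2 were higher and 0 lower. DECR1, which prepares unsaturated fatty acids for beta-oxidation, read 21.8, 23.9, 23.97 and 23.1 scaled TPM in RPMI_glcM/B27 and 36.6, 31.5, 34.1 and 35.2 in HPLM/B27 (0.55 ± 0.069 (SE), adjusted p = 0.00109), and ECI2, which does so in peroxisomes and mitochondria, rose from 34.4 ± 4.20 to 43.8 ± 0.992 scaled TPM (0.35, adjusted p = 0.0378). IDH2 missed the threshold without RPMI_glcM/B27 replicates 3 or 4 or HPLM/B27 replicate 4 (highest adjusted p = 0.0553). PDK3 passed without RPMI_glcM/B27 replicate 2 or HPLM/B27 replicate 2 and missed the threshold in the other 6 fits (highest adjusted p = 0.113, without HPLM/B27 replicate 4). ME1 passed without RPMI_glcM/B27 replicate 1 and missed the threshold in the other 7 fits (highest adjusted p = 0.141, without HPLM/B27 replicate 4). By limma-voom ME1 did not pass (adjusted p = 0.0854). ECI2 passed without RPMI_glcM/B27 replicate 3 and missed the threshold in the other 7 fits (highest adjusted p = 0.107, without HPLM/B27 replicate 4). By limma-voom ECI2 did not pass (adjusted p = 0.0616).

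PPARGC1A, the coactivator PGC-1alpha that drives mitochondrial genes, rose from 58.8 ± 4.55 to 83.4 ± 11.1 scaled TPM (0.49, adjusted p = 0.0162) and was the 1 of 21 regulators of the PGC-1, ERR and PPAR list that passed. It read 56.7, 65.5, 57.8 and 55.3 scaled TPM in RPMI_glcM/B27 and 71.3, 79.2, 97.6 and 85.4 in HPLM/B27. No nuclear gene of the respiratory chain passed. None of 35 nuclear complex I genes and none of 42 genes of complexes III, IV and V passed in limma, with 1 in each at an unadjusted p under 0.05 and 0 by limma-voom, and the medians were 0.03 and 0.11. ATP5F1B, the beta subunit of ATP synthase, differed by 0.10, 95% interval -0.04 to 0.25. MRPS6, a mitochondrial ribosomal protein, was the 1 of 28 mitochondrial dynamics and ribosome genes that passed, from 226 ± 21.6 to 366 ± 35.9 scaled TPM (0.69, adjusted p = 0.00153). MRPS6 shares its start with SLC5A3, the myo-inositol transporter, which stood at 13.8 and 20.5 scaled TPM (0.51, 95% interval 0.21 to 0.80, adjusted p = 0.0911), so reads of the shared exon are uncertain. PPARGC1A passed without RPMI_glcM/B27 replicate 2 or HPLM/B27 replicates 1, 2 or 3 and missed the threshold in the other 4 fits (highest adjusted p = 0.0558, without HPLM/B27 replicate 4).

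HPLM supplies ketone bodies, carnitine, creatine and taurine. None of 11 ketone and carnitine genes and none of 10 creatine and taurine genes passed in limma or limma-voom. Of these, 5 and 3 had an unadjusted p under 0.05, beside 13.9% of all genes. HPLM/B27 lay wholly above RPMI_glcM/B27 in 2 ketone and carnitine genes and wholly below in 2. For creatine and taurine genes it did so in 3 and 0, beside 5.46% and 4.82% of all genes. OXCT1, which activates ketone bodies, differed by 0.28, 95% interval 0.07 to 0.49, ACAT1, the thiolase of ketone use, by 0.36, 95% interval 0.11 to 0.62, CKM, muscle creatine kinase, by 0.23, 95% interval -0.02 to 0.48 and CKMT2, its mitochondrial form, by 0.19, 95% interval 0.01 to 0.38. None of 20 ATF4 targets, which answer amino acid shortage, passed (3 at an unadjusted p under 0.05, 0 by limma-voom). The same held for 24 cholesterol synthesis genes (2), 20 purine genes (1), 16 pyrimidine genes (1) and 22 serine, glycine and folate genes (3). In cholesterol synthesis the median was -0.09, and HMGCS1 differed by -0.27, 95% interval -0.72 to 0.17. Of 21 amino acid transporters, SLC1A3, a glutamate and aspartate carrier, fell from 56.7 ± 2.86 to 41.6 ± 5.81 scaled TPM (-0.45, adjusted p = 0.0347). Among 23 genes of urea, arginine and polyamines, AMD1, which makes the aminopropyl donor for polyamines, fell from 61.3 ± 3.60 to 41.3 ± 4.40 scaled TPM (-0.56, adjusted p = 0.00380). SAT1, which acetylates polyamines for breakdown, rose from 9.95 ± 1.15 to 15.4 ± 1.67 scaled TPM (0.59, adjusted p = 0.0388), and GOT2, mitochondrial aspartate aminotransferase, from 103 ± 4.18 to 123 ± 6.18 scaled TPM (0.25, adjusted p = 0.0338). GPX3, the secreted glutathione peroxidase, a selenoprotein, read 37.9, 33.4, 33.7 and 28.5 scaled TPM in RPMI_glcM/B27 and 74.4, 52.6, 58.01 and 61.6 in HPLM/B27 (0.86 ± 0.12 (SE), adjusted p = 0.00216) and was the 1 of 26 glutathione and selenoprotein genes that passed. SLC1A3 passed without HPLM/B27 replicate 2 and missed the threshold in the other 7 fits (highest adjusted p = 0.115, without HPLM/B27 replicate 4). SAT1 missed it without any one of the 8 libraries (highest adjusted p = 0.124, without HPLM/B27 replicate 4). GOT2 passed without RPMI_glcM/B27 replicate 1 or HPLM/B27 replicate 4 and missed the threshold in the other 6 fits (highest adjusted p = 0.1001, without RPMI_glcM/B27 replicate 3).

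**Figure D4:**
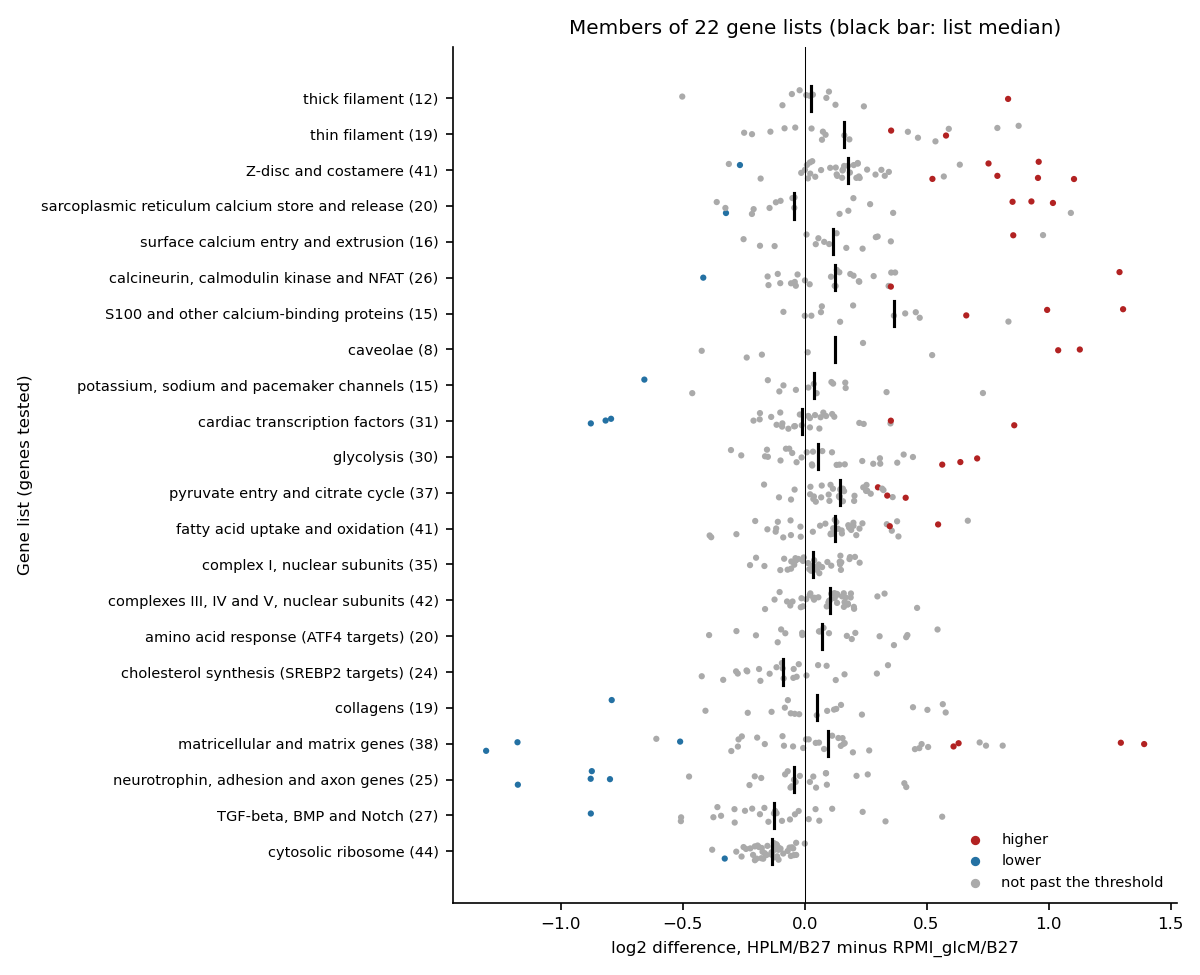
Differences between HPLM/B27 and RPMI_glcM/B27 on the log2(scaled TPM + 1) scale (horizontal axis) for the tested genes of 22 lists (rows). Each point is a gene, coloured points passed an adjusted p of 0.05 and bars are medians. The Z-disc, S100 and citrate cycle medians lie at 0.18, 0.37 and 0.14, beside 0.00 over all genes.

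Matrix genes split between the directions. Of 38 matricellular and matrix genes tested, 4 were higher and 3 lower in HPLM/B27, with 20 at an unadjusted p under 0.05, beside 1.02%, 0.62% and 13.9% of all genes. TNC, tenascin-C, a matrix protein of developing and injured heart, read 1.65, 0.626, 1.39 and 1.31 scaled TPM in RPMI_glcM/B27 and 4.69, 3.45, 4.28 and 5.47 in HPLM/B27. All HPLM/B27 wells lay above (1.30 ± 0.16 (SE), adjusted p = 0.000835). FN1, fibronectin, the ligand of the ITGA5 integrin, read 76.8, 68.99, 70.7 and 68.2 scaled TPM in RPMI_glcM/B27 and 115, 97.95, 102 and 132 in HPLM/B27 (0.63 ± 0.10 (SE), adjusted p = 0.00591). SPP1, osteopontin, rested on few reads, 77 in HPLM/B27 against 8 in RPMI_glcM/B27, a ratio of 7.87 (95% counting interval 3.80 to 18.9), with 1.39, adjusted p = 0.000605 on the log2 scale. HAPLN1, the link protein of hyaluronan, rose from 4.06 ± 0.486 to 6.77 ± 1.29 scaled TPM (0.61, adjusted p = 0.0350). HAPLN1 passed without HPLM/B27 replicates 1 or 2 and missed the threshold in the other 6 fits (highest adjusted p = 0.109, without RPMI_glcM/B27 replicate 2). By limma-voom HAPLN1 did not pass (adjusted p = 0.058).

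On the other side, NELL1, a secreted signalling protein of bone, read 9.99, 10.8, 10.5 and 8.53 scaled TPM in RPMI_glcM/B27 and 4.56, 2.10, 4.28 and 3.18 in HPLM/B27. MFAP4, a protein of elastic microfibrils, read 27.1, 32.3, 30.4 and 25.5 scaled TPM in RPMI_glcM/B27 and 15.1, 12.3, 11.4 and 10.2 in HPLM/B27. Both lay lower in HPLM/B27 without overlap (-1.31 ± 0.17 (SE), adjusted p = 0.00153, and -1.18 ± 0.17 (SE), adjusted p = 0.00332). NPNT, nephronectin, an integrin ligand of basement membranes, fell from 41.5 ± 3.65 to 28.8 ± 2.16 scaled TPM (-0.51, adjusted p = 0.00658). Of 19 collagens, COL25A1, a membrane collagen, was the 1 that passed, from 2.77 ± 0.341 to 1.18 ± 0.233 scaled TPM (-0.79, adjusted p = 0.0148), while COL4A1 differed by 0.05, 95% interval -0.17 to 0.27, COL1A1 by 0.13, 95% interval -0.17 to 0.43 and COL3A1 by 0.57, 95% interval 0.23 to 0.91. ADAMTS5, a protease of matrix proteoglycans, fell from 2.73 ± 0.590 to 1.02 ± 0.220 scaled TPM (-0.88, adjusted p = 0.0191). COL25A1 missed the threshold without RPMI_glcM/B27 replicate 3 or HPLM/B27 replicate 4 (highest adjusted p = 0.0528). ADAMTS5 passed without RPMI_glcM/B27 replicates 3 or 4 or HPLM/B27 replicates 2 or 3 and missed the threshold in the other 4 fits (highest adjusted p = 0.0669, without RPMI_glcM/B27 replicate 2).

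The genes that fell included adhesion and axon guidance proteins. PCDH20, a protocadherin on chromosome 13, 61409685 to 61415849, read 90.8, 81.9, 81.003 and 81.7 scaled TPM in RPMI_glcM/B27 and 38.2, 40.5, 35.2 and 32.7 in HPLM/B27. It was among the smallest adjusted p in the comparison (-1.18 ± 0.12 (SE), adjusted p = 0.000591). VCAM1, an adhesion molecule of developing heart muscle and endothelium, read 76.4, 75.4, 70.5 and 87.6 scaled TPM in RPMI_glcM/B27 and 39.8, 55.7, 39.004 and 43.2 in HPLM/B27 (-0.80 ± 0.11 (SE), adjusted p = 0.00201). NTRK2, the receptor of brain-derived neurotrophic factor, fell from 4.88 ± 0.189 to 2.24 ± 0.472 scaled TPM (-0.87, adjusted p = 0.00153), and ROBO2, a receptor of SLIT ligands, from 5.51 ± 0.794 to 2.63 ± 0.935 scaled TPM (-0.88, adjusted p = 0.0214). These 4 of the 25 tested genes of the list passed and 0 were higher, beside 0.62% lower and 1.02% higher of all genes. The list median was -0.04. Outside the list, EPHA3, an ephrin receptor, fell from 5.58 ± 1.10 to 2.16 ± 0.785 scaled TPM (-1.08, adjusted p = 0.0152), GFRA1, a receptor of glial-derived neurotrophic factor, from 4.31 ± 0.493 to 1.80 ± 0.549 scaled TPM (-0.94, adjusted p = 0.0267), and NXPH2, a secreted ligand of neurexins, from 11.2 ± 0.701 to 4.33 ± 0.370 scaled TPM (-1.19, adjusted p = 0.00132). Neural markers summed to 212 to 217 scaled TPM in RPMI_glcM/B27 and 182 to 321 in HPLM/B27. SOX1 and NEUROD1 were at 0 in both, and their part in the result was not tested. ROBO2 missed the threshold without RPMI_glcM/B27 replicates 1, 2 or 4 (highest adjusted p = 0.0744). EPHA3 missed the threshold without RPMI_glcM/B27 replicate 4 (adjusted p = 0.0522). GFRA1 passed without RPMI_glcM/B27 replicate 4 or HPLM/B27 replicate 1 and missed the threshold in the other 6 fits (highest adjusted p = 0.0875, without RPMI_glcM/B27 replicate 2).

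Among the other genes that the naming rule took for a large difference or a small adjusted p, GLP1R, the receptor of glucagon-like peptide 1, fell from 3.76 ± 1.17 to 1.54 ± 0.232 scaled TPM (-0.88, adjusted p = 0.0214), and SLC6A4, the serotonin transporter, from 3.01 ± 0.765 to 1.16 ± 0.124 scaled TPM (-0.88, adjusted p = 0.00910). TM4SF1, a surface tetraspanin-like protein, rose from 1.89 ± 0.544 to 5.26 ± 1.20 scaled TPM (1.11, adjusted p = 0.00211), TMEM40 from 1.46 ± 0.449 to 4.01 ± 0.630 scaled TPM (1.03, adjusted p = 0.00506) and ARHGEF6, a guanine nucleotide exchange factor, from 3.75 ± 0.663 to 8.51 ± 1.53 scaled TPM (1.00, adjusted p = 0.000735). HTATIP2 rose from 0.843 ± 0.296 to 2.86 ± 0.525 scaled TPM (1.07, adjusted p = 0.0154), DHRS9, a retinol dehydrogenase, from 1.03 ± 0.419 to 3.63 ± 1.03 scaled TPM (1.19, adjusted p = 0.0180) and REEP2, which shapes the endoplasmic reticulum, from 10.1 ± 1.20 to 16.6 ± 0.492 scaled TPM (0.67, adjusted p = 0.000591). GLP1R passed without RPMI_glcM/B27 replicates 2, 3 or 4 or HPLM/B27 replicate 1 and missed the threshold in the other 4 fits (highest adjusted p = 0.0632, without HPLM/B27 replicate 4). HTATIP2 missed the threshold without HPLM/B27 replicate 4 (adjusted p = 0.0520). DHRS9 missed the threshold without RPMI_glcM/B27 replicate 1 or HPLM/B27 replicate 1 (highest adjusted p = 0.0582).

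Single members passed in further lists. CDKN1A, the cell cycle inhibitor p21, rose from 82.5 ± 7.48 to 116 ± 7.77 scaled TPM (0.49, adjusted p = 0.00658) and was the 1 of 39 cell cycle genes that passed. The list had a median of 0.17 and 32 genes above 0, and the proliferation gene TOP2A differed by 0.12, 95% interval -0.47 to 0.71. RGS5, a marker of pericytes that heart muscle cells can also express, rose from 32.6 ± 2.98 to 47.4 ± 3.88 scaled TPM (0.53, adjusted p = 0.0134), with the smooth muscle markers ACTA2 and TAGLN at 0.09, 95% interval -1.04 to 1.22 and 0.38, 95% interval -0.73 to 1.49. TDGF1, an early mesoderm and stem cell gene, rose from 14.5 ± 1.98 to 26.3 ± 1.88 scaled TPM (0.82, adjusted p = 0.0105). It is itself 1 of the 8 pluripotency markers. Of the others, POU5F1, NANOG, SOX2, DPPA4 and ZFP42 were at or near 0 in both media, LIN28A read 0.769 to 1.84 scaled TPM in RPMI_glcM/B27 and 0.476 to 0.987 in HPLM/B27, and PODXL differed by 0.11, 95% interval -0.28 to 0.51. RGS5 missed the threshold without HPLM/B27 replicate 4 (adjusted p = 0.0516).

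Cytosolic ribosomal protein genes lay mostly below 0. Of 44 tested, 1 had a difference above 0, 8 had an unadjusted p under 0.05, and 1 passed, with a median of -0.14 (-0.21 with 0 above 0 on the deposited scale, where none passed). Over all genes 50.3% were above 0 (36.7% on the deposited scale) and 13.9% had an unadjusted p under 0.05. RPL7 was that gene, at 275, 295, 288 and 289 scaled TPM in RPMI_glcM/B27 and 236, 227, 235 and 216 in HPLM/B27 (-0.33 ± 0.063 (SE), adjusted p = 0.0164). It has many pseudogenes that can share its reads, and the abundant RPL5 and RPS6 differed by -0.15, 95% interval -0.34 to 0.03 and -0.06, 95% interval -0.31 to 0.19. RPL7 missed the threshold without RPMI_glcM/B27 replicates 2 or 3 or HPLM/B27 replicate 4 (highest adjusted p = 0.0632).

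Of the genes of other lists, none passed among SRF and MRTF targets (30 tested, 4 at an unadjusted p under 0.05), immediate early genes (17, 5), heat shock and unfolded protein genes (25, 1), hypoxia genes (22, 4), interferon genes (12, 2), metallothionein, zinc and iron genes (14, 4) and hexosamine and pentose phosphate genes (23, 7), and limma-voom called 0 in each. Over all genes 13.9% had an unadjusted p under 0.05. In the TGF-beta, BMP and Notch list, HEY2 was the 1 of 27 that passed, and the median was -0.13. In the phosphate list, SPP1 was the 1 of 8, and the phosphate importer SLC20A2 differed by -0.06, 95% interval -0.45 to 0.34. Hepatic endoderm markers summed to 99.4 to 244 scaled TPM in RPMI_glcM/B27 and 82.3 to 213 in HPLM/B27, where 0 of 10 passed in limma or limma-voom and 0 had an unadjusted p under 0.05.

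The called genes included 141 coding genes higher and 78 lower, and non-coding RNA. LOC101927888, an uncharacterised locus on chromosome 6, 4341754 to 4347162, had the largest difference of genes with at least 10 reads. It read 4.90, 5.68, 5.09 and 4.58 scaled TPM in RPMI_glcM/B27 and 15.8, 16.7, 15.6 and 15.1 in HPLM/B27. The wells of each medium lay close to each other and the media far apart (1.47 ± 0.15 (SE), adjusted p = 0.000591). HRAT17, a non-coding RNA named for heart tissue, read 14.1, 14.02, 15.5 and 16.7 scaled TPM in RPMI_glcM/B27 and 30.3, 26.8, 35.1 and 59.5 in HPLM/B27 (1.21 ± 0.28 (SE), adjusted p = 0.0435). MIR1244-3 fell from 61.5 ± 21.1 to 22.6 ± 5.29 scaled TPM (-1.37, adjusted p = 0.0223), but it is a short gene with near-identical copies, MIR1244-2 and MIR1244-4, that stood at differences of 0.17 and 0.80, so its value is uncertain. HRAT17 passed without HPLM/B27 replicate 2 and missed the threshold in the other 7 fits (highest adjusted p = 0.123, without HPLM/B27 replicate 4). MIR1244-3 passed without RPMI_glcM/B27 replicates 2 or 4 or HPLM/B27 replicates 2 or 3 and missed the threshold in the other 4 fits (highest adjusted p = 0.0801, without HPLM/B27 replicate 4). Of the 256 called genes, 8 had a mean under 10 reads. MIR4654 had 10 reads in HPLM/B27 and 0 in RPMI_glcM/B27, at least 2.72-fold higher when 3 reads over the group are taken as the limit, MIR483 had 8 and 0 (at least 2.18-fold higher) and MIR3140 had 0 and 7 (at least 2.85-fold lower).

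Within 100000 bases there were 14 pairs of called genes, 5 of them overlapping, and both members had the same sign in all 14. The share of such pairs among all neighbouring genes was not taken, so the count has no background. The pairs are also not independent, since the S100 genes and FZD1 each enter more than 1 pair. The pairs that do not overlap include CAV2 with CAV1, the S100A6, S100A4 and S100A13 cluster on chromosome 1, ADAMTS1 with ADAMTS5 on chromosome 21 (-0.73 and -0.88, 72512 bases apart) and PYGL with TRIM9 on chromosome 14 (-0.58 and -0.76). ADAMTS1 and ADAMTS5 are related matrix proteases. In the 5 overlapping pairs, ITGA1 with PELO, MACROD2 with MACROD2-AS1, PLCXD3 with LOC105374740, HOMER1 with LOC107986426 and KCNQ5 with LOC105377855, reads may be shared, since the strand setting of the counting is not given in the sources used here.

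The change from Day 16 to Day 30 in RPMI/B27 is the difference between the other 8 libraries, so the values can be set side by side. The fit shares 1 spread per gene over all 16 libraries, so a gene with a small spread passes more easily in both comparisons, and the counts of genes past both thresholds are not independent. Over all tested genes 1359 (8.68%) rose and 1392 (8.89%) fell with time. Of the 159 genes higher in HPLM/B27, 49 (30.8%) rose and 34 (21.4%) fell between the days. Of the 97 lower in HPLM/B27, 27 (27.8%) rose and 19 (19.6%) fell. Some members went the same way in both. MYL2 differed by 3.81, adjusted p = 6.42e-10 with time, TNNI3 by 1.67, adjusted p = 3.77e-08, DES by 1.31, adjusted p = 0.000153, CSRP3 by 1.30, adjusted p = 3.65e-05 and CAV1 by 1.45, adjusted p = 5.03e-05. NEBL, higher in HPLM/B27, was at -0.08, adjusted p = 0.534 with time, and TNNI1, which did not pass between the media, rose with time (0.70, adjusted p = 2.35e-06). FN1 (-1.54, adjusted p = 2.53e-07), TNC (-0.89, adjusted p = 0.000992), MEF2C (-1.08, adjusted p = 4.48e-07) and TDGF1 (-1.86, adjusted p = 1.04e-06) fell with time and were higher in HPLM/B27. PCDH20 (1.34, adjusted p = 3.21e-06), MFAP4 (2.05, adjusted p = 1.91e-06) and SHOX2 (1.97, adjusted p = 3.07e-06) rose with time and were lower in HPLM/B27 than in RPMI_glcM/B27. In the same fit, HPLM/B27 was lower than Day 16 for FN1 (-1.59), TNC (-0.74), MEF2C (-0.84) and TDGF1 (-0.73). It was higher than Day 16 for PCDH20 (0.81), MFAP4 (0.95) and SHOX2 (1.01). Against RPMI/B27, HPLM/B27 did not pass for FN1 (-0.05), TNC (0.15) or MEF2C (0.24). It was higher for TDGF1 (1.13) and lower for PCDH20 (-0.53), MFAP4 (-1.11) and SHOX2 (-0.96). RPMI_glcM/B27 was lower than RPMI/B27 for FN1 (-0.68) and TNC (-1.15). RCAN1 (0.14, adjusted p = 0.655), GEM (-0.12, adjusted p = 0.630), ENO3 (0.20, adjusted p = 0.0640) and DECR1 (0.07, adjusted p = 0.579) did not pass with time.

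**Figure D5:**
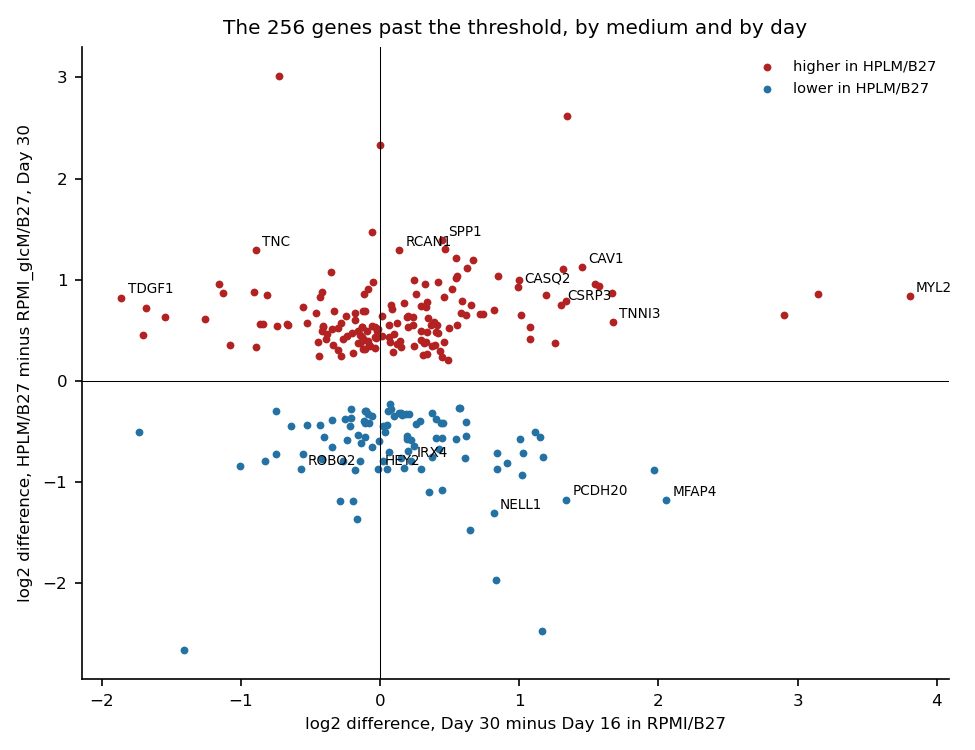
Difference between Day 30 RPMI/B27 and Day 16 RPMI/B27 (horizontal axis) and between HPLM/B27 and RPMI_glcM/B27 (vertical axis), both on the log2(scaled TPM + 1) scale, for the 256 genes called between the media. The 2 differences are taken from different libraries, with the spread of each gene shared. Of the 159 genes higher in HPLM/B27, 49 rose and 34 fell with time.

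Day 30 RPMI/B27, whose glucose was higher, gives the level of each gene without the glucose match. It was compared with each other medium in the same limma fit, in which 13.1% of all genes passed between HPLM/B27 and RPMI/B27 and 11.9% between RPMI_glcM/B27 and RPMI/B27. These comparisons share libraries with each other and with the comparison of the media above. TNNI3 stood at 434 ± 36.7 scaled TPM in RPMI/B27. RPMI_glcM/B27 was higher, with 961 ± 109 (1.14, adjusted p = 1.31e-05 against RPMI/B27), and HPLM/B27 highest, with 1432 ± 77.8 (1.72, adjusted p = 1.15e-07 against RPMI/B27). MYL2 stood at 539 ± 62.6 in RPMI/B27. It was lower in RPMI_glcM/B27 (377 ± 23.6, a difference from RPMI/B27 of -0.51, adjusted p = 0.0298), while HPLM/B27 (682 ± 133) did not pass against RPMI/B27 (0.33, adjusted p = 0.149). S100A6, at 59.6 ± 6.57 in RPMI/B27, was lower in RPMI_glcM/B27 (-0.90, adjusted p = 0.000862) and did not pass for HPLM/B27 (0.10, adjusted p = 0.698). RCAN1, at 27.6 ± 7.75 in RPMI/B27, was higher in HPLM/B27 (1.40, adjusted p = 0.000164) and did not pass for RPMI_glcM/B27 (0.11, adjusted p = 0.753). GPX3 and ENO3 were likewise higher in HPLM/B27 than in RPMI/B27 (1.00, adjusted p = 0.00013, and 0.69, adjusted p = 3.12e-05). Neither passed for RPMI_glcM/B27 (0.14, adjusted p = 0.528, and 0.05, adjusted p = 0.718). NTRK2, at 3.90 ± 0.201, was lower in HPLM/B27 (-0.61, adjusted p = 0.00314) and did not pass for RPMI_glcM/B27 (0.26, adjusted p = 0.158). PYGL, at 40.1 ± 0.718, was higher in RPMI_glcM/B27 (0.59, adjusted p = 8.22e-05) and did not pass for HPLM/B27 (0.02, adjusted p = 0.915).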

How the data were processed

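Total RNA of 16 wells of WTC11 hPSC-CMs was made into stranded libraries with a Takara SMARTer kit for total RNA. Per the submitters' processing notes, STAR 2.5.3a, featureCounts 2.0.3, R 4.1.3 and build hg38 were used. The authors deposited TPM for 43388 genes, that is read counts per gene length scaled to the same total in every library. The annotation, the gene lengths, the tool behind the TPM and the strand setting of the counting are not given in the sources used here. Apart from ribosomal RNA, none of 26 mitochondrially encoded transcripts looked up by name was among the deposited genes. All 16 columns were used and no pair of libraries was identical.

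The deposited TPM of each library were divided by a median-of-ratios factor from 14555 genes (0.878 to 1.06 in the 8 libraries compared). Genes whose mean over those 8 reached 1 TPM were fitted on log2(scaled TPM + 1) by limma (version 3.58.1, R 4.3.3, trended eBayes), with all 4 groups of 4 libraries sharing 1 estimate of the spread. P-values were adjusted by Benjamini-Hochberg over the 15653 genes, with a threshold of 0.05. For isoform shares the exact permutation test was two-sided. Since a TPM comes from whole reads, a gene length and a library factor, whole reads were recovered from the ratios of a gene's values, for 31047 of the 31047 genes above 0. They gave the depth, the read minimum of 10, the ratios of genes with few reads, whose intervals cover counting error only, and a limma-voom fit. Of the genes tested, 1910 (12.2%) had a mean under 10 reads. Scripts were tested on simulated data, with Python 3.11.15, numpy 2.4.6, pandas 2.3.3, scipy 1.17.1 and matplotlib 3.10.9. Positions and promoters are from RefSeq on GRCh38.p14, to which 245 of the 256 called genes were matched by symbol.

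The members, gene lists and tests were chosen with earlier results of these data known. Genes are named by a rule: in each direction the 15 largest differences among genes past the threshold without overlap and with a mean of at least 10 reads, the 5 smallest adjusted p-values, every list member past the threshold, up to 4 of the most abundant other members of a list, 3 isoform pairs, and the structural RNAs that touch the scale. Genes outside it are said to be so. A few genes are not reported here and were left out of the lists, though not of the fits. The alternatives were the deposited scale, a scale without structural and mitochondrial RNA, a pseudocount of 0.1, other filters, the 2 media alone, a replicate block, RNR1 as a covariate, limma-voom and each library left out in turn. The authors' own tests, which used DESeq2, and the qPCR, imaging and flux measurements were not analysed here.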

Additional observations from a re-analysis of the deposited data

Results flagged for a closer look

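In groups of 4 libraries, a well was looked at again where its gap to the nearest other well took a share of the range of the group (the ratio below) above Dixon's 95% limit for 4 values. Of 178 groups checked over the named genes and the isoform shares, 8 passed, and chance alone passes about 1 group in 20. In HPLM/B27, TMEM40 was highest in replicate 4 (4.95 against 3.64 to 3.73 scaled TPM in the other wells, ratio 0.931) and SLC4A3 highest in replicate 3 (48.5 against 45.1 to 45.7, ratio 0.834). TBX18 was lowest in replicate 3 (5.75 against 7.24 to 7.39, ratio 0.912) and IRX4 lowest in replicate 4 (18.2 against 27.98 to 29.6, ratio 0.857). The MYL2 share was highest in replicate 2 (17.02% against 13.01% to 13.6%, ratio 0.841). In RPMI_glcM/B27, PCDH20 was highest in replicate 1 (90.8 against 81.0 to 81.9, ratio 0.906) and S100A6 highest in replicate 4 (35.6 against 29.5 to 30.5, ratio 0.845). MYH7 was lowest in replicate 1 (2432 against 2796 to 2809, ratio 0.966).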

How the results depend on the processing

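The number of genes past the threshold depended on the scale and on single wells. All 256 genes kept their sign in every fit without 1 library and on the deposited TPM. The levels of 255 of them did not overlap between the media, so leaving out 1 well could not turn their sign. The median shift of the deposited scale was smaller than the called differences, so the kept signs are no test of direction. Called genes numbered 11 (8 higher, 3 lower) on the deposited TPM, 94 (64 and 30) without structural and mitochondrial RNA, and 476 (283 and 193) by limma-voom with RNR1 as a covariate. Leaving out 1 library gave 129 to 262 called genes, 77 to 176 of them higher and 47 to 86 lower. The count was 153, 145, 138 and 159 without RPMI_glcM/B27 replicates 1 to 4 and 167, 154 and 129 without HPLM/B27 replicates 1, 3 and 4, with 95 genes (61 higher, 34 lower) called in all 8 fits. The other fits stayed within 1.5 times of the 256, from 215 with all genes above 0 to 293 with RNR1 as a covariate. limma-voom alone called 266, including 225 of the 248 called genes it tested, and the fit with a replicate block called 231 (141 higher, 90 lower). The labels do not say whether wells of the same replicate number belong together. The deviations of same-numbered wells had correlations of -0.05, 0.00, -0.05 and 0.03, which would not show a pairing that is weak or touches few genes. Of the 79 named called genes, 44 passed in all 8 fits without 1 library. The isoform share differences ranged without 1 library over 5.08 to 6.42 points for the MYL2 share of MYL2 and MYL7, 6.60 to 9.43 for the MYH7 share of MYH6 and MYH7 and 11.3 to 13.7 for the TNNI3 share of TNNI1 and TNNI3, with the exact p at 0.0571, the smallest that 3 against 4 wells can give. As shares of reads the differences were 5.48, 8.45 and 9.09 points. Signs turned for 2 genes that were not called: RNR1 (-0.26, -1.16 to 0.74 without 1 library, with 0.39, 0.60, 0.74 and 0.52 without RPMI_glcM/B27 replicates 3 and 4 and HPLM/B27 replicates 2 and 3) and MYL7 (-0.052, -0.13 to 0.029 without 1 library, the latter without HPLM/B27 replicate 3). The causes were not tested. Depth left 1910 tested genes with a mean under 10 reads.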

Other observations

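Some called genes outside the lists are named here after their values were seen. Of 12 ADAMTS matrix protease genes tested, 0 were higher and 4 lower in HPLM/B27, beside 1.02% and 0.62% of all genes, and the other 8 had differences from -0.38 to 0.36. No list held the family, which was picked from the called genes. ADAMTS6 read 21.5, 18.4, 19.4 and 17.5 scaled TPM in RPMI_glcM/B27 and 12.2, 12.9, 13.5 and 12.6 in HPLM/B27 (-0.55, adjusted p = 0.00591 by limma), ADAMTS19 fell from 16.3 ± 1.18 to 10.5 ± 0.961 scaled TPM (-0.59, adjusted p = 0.00746) and ADAMTS1 from 13.4 ± 1.70 to 7.72 ± 1.19 scaled TPM (-0.73, adjusted p = 0.00602), beside ADAMTS5 given above. ADAMTS1, ADAMTS6 and ADAMTS19 passed in all 8 fits without 1 library. PDGFD, a growth factor of the PDGF family, read 79.2, 72.8, 81.4 and 71.1 scaled TPM in RPMI_glcM/B27 and 39.6, 56.7, 47.6 and 37.1 in HPLM/B27 (-0.75, adjusted p = 0.00539), and KCNQ5, a potassium channel related to KCNQ1, 37.3, 36.9, 38.2 and 29.2 scaled TPM in RPMI_glcM/B27 and 21.7, 25.1, 24.1 and 21.1 in HPLM/B27 (-0.60, adjusted p = 0.00153). Both passed in all 8 fits and did not overlap between the media.

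Among genes that were higher, PROS1, the anticoagulant protein S, read 64.1, 56.4, 62.2 and 59.8 scaled TPM in RPMI_glcM/B27 and 103, 93.98, 94.8 and 95.004 in HPLM/B27 (0.66, adjusted p = 0.00492). FGF1, a fibroblast growth factor of heart muscle, rose from 15.8 ± 1.25 to 26.6 ± 4.78 scaled TPM (0.70, adjusted p = 0.00539), CTSB, the lysosomal protease cathepsin B, from 77.1 ± 2.58 to 102 ± 3.85 scaled TPM (0.39, adjusted p = 0.00812), and NRAP, which takes part in the assembly of myofibrils, from 3.89 ± 0.611 to 6.63 ± 0.664 scaled TPM (0.65, adjusted p = 0.00822). These 4 passed in all 8 fits without 1 library. BVES, a cyclic AMP-binding membrane protein of muscle, had a wide gap, with 165, 182, 172 and 166 scaled TPM in RPMI_glcM/B27 and 254, 265, 300.4 and 288 in HPLM/B27, but an adjusted p of 0.0480 that passed in 0 of the 8 fits without 1 library. APOE, a lipid carrier, likewise read 33.04, 41.1, 40.99 and 45.6 scaled TPM in RPMI_glcM/B27 and 67.2, 64.96, 63.9 and 70.3 in HPLM/B27 (0.72, adjusted p = 0.0477) and passed in 0 of them. In both genes every HPLM/B27 well lay above every RPMI_glcM/B27 well.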
